A study of Mus musculus with 8 samples.

Results

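The genes of the mouse major histocompatibility complex (MHC), whose symbols begin with H2-, were examined together with 9 genes that load or switch on MHC molecules, in the white fat of mice on a Western diet. Membership went by name: every gene in the expression table whose name starts with H2-, plus Cd74, B2m, Tap1, Tap2, Tapbp, Tapbpl, Ciita, Nlrc5 and Erap1, leaving out 2 rows marked as pseudogenes by -ps. This gave 41 of the 28295 genes in the table. Of these, 29 belong to the class I route, 11 to the class II route, and H2-Ke6 carries the prefix only because it lies in the complex and encodes a dehydrogenase. On chromosome 17 lie 35 of the 41.

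Class I molecules sit on nearly all nucleated cells and show peptides from the cytosol. Each is a heavy chain bound to beta-2 microglobulin, loaded in the endoplasmic reticulum with peptides that the TAP transporter brings in, and NLRC5 is the transactivator of class I genes. Class II molecules, made mainly by macrophages, dendritic cells and B cells, show peptides from endosomes to CD4+ T cells. Their alpha and beta chains are assembled on the invariant chain CD74, exchange its fragment for a peptide with the help of H2-DM, and are switched on by CIITA. White fat holds many macrophages, and adipocytes themselves are known to carry MHC molecules.

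RNA from epididymal white fat of male mice was sequenced after poly(A) selection, in 4 libraries of a KO group and 4 of a WT group. KO mice had both Cul3 alleles flanked by loxP sites and a Cre recombinase under the Adipoq promoter, which is active in adipocytes, so the other cells of the fat are not targeted. WT mice carried the same floxed Cul3 alleles without Cre. All mice had 8 weeks of Western diet and were fasted for 6 h, and no label gives their strain, MHC haplotype or age. Cul3 encodes the scaffold of the cullin 3 ubiquitin ligases, and the comparison asks what its deletion in adipocytes does to the fat. Values are FPKM (mapped fragments per kilobase of a gene, per 1000000 in the library) as deposited, and KO1 to KO4 and WT1 to WT4 are the libraries by replicate number. The labels do not say whether these numbers pair a KO with a WT mouse, and the libraries were treated as unpaired. The labels do not tie each library to an animal, so p-values measure the spread between these libraries.

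Cul3 was no lower in KO than in WT. It had 10.6, 11.2, 13.2 and 13.0 FPKM in KO1 to KO4, against 11.4, 9.66, 12.4 and 11.5 FPKM in WT1 to WT4, and the groups overlapped (log2 fold change 0.09 ± 0.10, adjusted p = 0.52; exact two-sided permutation p = 0.429). KO is used throughout as the label of these libraries, and each direction given rests on that label. The fat label fitted the marker genes, since all 8 adipocyte markers were found in every library, although their summed level was 1546 to 2066 FPKM in KO, against 3933 to 5265 FPKM in WT, and all 8 fell. Recovered reads in listed genes came to 15.2 to 18.7 M (M, 1000000 reads) per KO library, against 17.7 to 19.7 M per WT library, or 62.6% to 66.1% of the mapped total in KO and 74.1% to 78.7% in WT. Liver transcripts stood out in WT1 and WT2: 6 hepatocyte markers summed to 6.97 to 19.0 FPKM in KO, and to 128, 465, 35.3 and 18.3 FPKM in WT1 to WT4. A change was called at an adjusted p under 0.05 in limma, fitted over the 14400 genes with a mean of at least 0.5 FPKM, and fold changes are KO over WT on the log2(FPKM + 0.5) scale, written in brackets with their standard errors.

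Of the 41 members, 30 passed the filter on low values, and 11 of these rose and 2 fell, with 12 of the 13 changes in class I. Across all tested genes 30.4% were called, 11.7% as higher and 18.6% as lower, whereas 43.3% of the tested members were called. In the class I route 10 of 21 tested members rose and 2 fell (57.1% called), with a median log2 fold change of 0.31, against -0.02 over all genes. In the class II route 1 of 9 rose and none fell (11.1% called, below the share over all genes), although all 9 fold changes were above 0 and their median was 0.72. The difference between the classes was not tested. The 11 members that did not pass the filter never exceeded 0.787 FPKM in any library. They are H2-M1, H2-M2, H2-M5, H2-M10.2, H2-Q1, H2-Q2, H2-Bl and H2-T3 of class I, H2-Eb2 and H2-Oa of class II, and H2-Ke6. All 4 KO values lay above all 4 WT values for 11 of the 30 tested members, against 12.1% of all tested genes, and all lay below for 2, against 19.1%.

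**Figure D1:**
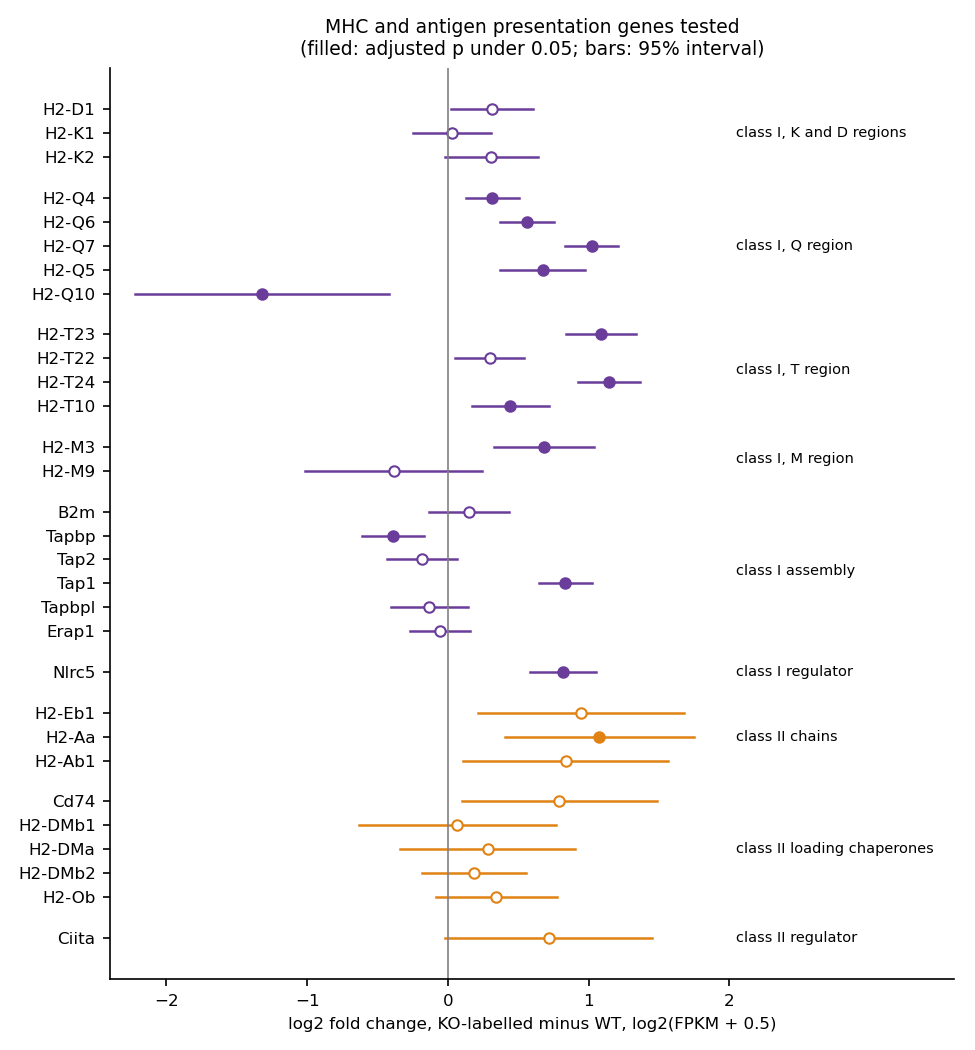
Log2 fold change (KO over WT) with its 95% interval for each of the 30 tested members, with class I and class II apart and members called in limma marked. Most called rises are class I heavy chains, Tap1 and Nlrc5, while class II genes have fold changes of 0.07 to 1.08 with wide intervals.

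The classical class I heavy chains, which present peptides to CD8+ T cells, were the most abundant chains and none passed the test. H2-K1 (chromosome 17, 33996017 to 34000347) had 396, 366, 350.0 and 367 FPKM in KO and 434, 349, 307 and 368 FPKM in WT. The groups overlapped throughout (log2 fold change 0.03 ± 0.12, adjusted p = 0.867, 95% interval of the KO-over-WT ratio 0.843 to 1.24), but with quantile normalization it was called higher (0.32, adjusted p = 0.0471). H2-D1 had 567, 527, 446 and 448 FPKM in KO1 to KO4, against 429.7, 421, 339 and 406 FPKM in WT1 to WT4. Every KO value was above every WT value, but the difference missed the threshold (log2 fold change 0.31 ± 0.13, adjusted p = 0.0932, ratio 1.02 to 1.52). H2-K2, a pseudogene in the annotation, averaged 7.7 ± 1.6 FPKM in KO and 6.05 ± 0.715 FPKM in WT (SD, n = 4 each) and was not called either (adjusted p = 0.139, but 0.0368 without KO4). The ratio of H2-D1 to H2-K1 was 1.22 to 1.44 in KO, against 0.99 to 1.21 in WT. The groups did not overlap, but KO4 (1.22) was barely above WT2 (1.21).

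Chains of the Q region, which includes the genes of the Qa-2 antigen, changed in all 5 tested genes, with 4 higher and 1 lower. H2-Q7, a Qa-2 gene (chromosome 17, 35439155 to 35443773), had 16.0, 13.5, 13.2 and 15.0 FPKM in KO, against 6.43, 6.63, 7.43 and 6.88 FPKM in WT. The lowest KO value was well above the highest WT value, and H2-Q7 rose by 1.02 ± 0.08 on the log2 scale (adjusted p = 0.000109). H2-Q6, its close copy and another Qa-2 gene, had 33.1, 35.2, 33.9 and 35.7 FPKM in KO and 21.3, 23.3, 26.4 and 21.8 FPKM in WT. These groups did not overlap either, and the rise was 0.57 ± 0.08 (adjusted p = 0.00172). H2-Q4 had 45.9, 40.8, 38.7 and 43.7 FPKM in KO and 36.4, 34.4, 32.4 and 32.1 FPKM in WT. All KO values stood above WT by a small step (0.32 ± 0.08, adjusted p = 0.0213), and the call was lost without WT3 (adjusted p = 0.0549). H2-Q5, listed as a polymorphic pseudogene, had 10.8, 9.49, 7.89 and 8.66 FPKM in KO and 5.67, 5.12, 6.96 and 4.68 FPKM in WT, again without overlap (0.67 ± 0.13, adjusted p = 0.00632).

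H2-Q10 went the other way. It encodes a soluble class I chain secreted by the liver, and it had 0.655, 0.488, 0.855 and 1.06 FPKM in KO, against 2.22, 7.17, 1.82 and 1.45 FPKM in WT. All KO values were below all WT values, with WT2 far above the rest (-1.32 ± 0.40, adjusted p = 0.0357). WT2 and WT1 are also the libraries with the highest hepatocyte marker sums, 465 and 128 FPKM, and the part of liver transcripts in the H2-Q10 difference was not tested. Without both libraries the fold change was -0.77 and the call was lost (adjusted p = 0.0636). It was also lost without KO1, KO2, KO3 or WT1 alone (adjusted p = 0.0665 to 0.0886), and with no filter, voom or a replicate block (0.0666 to 0.0867). The calls of H2-Q4 and H2-Q5 were lost without WT1 and WT2 as well (adjusted p = 0.0653 and 0.0701).

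The T region gave the steepest rises. H2-T23 (chromosome 17, 36029773 to 36032855) encodes Qa-1, which shows leader peptides of other class I chains to receptors on natural killer cells. It had 50.2, 47.0, 47.2 and 48.0 FPKM in KO, against 22.2, 24.4, 18.0 and 25.6 FPKM in WT. The 4 KO values were close together and each was well above the highest WT value (1.09 ± 0.11, adjusted p = 0.000284; exact two-sided permutation p = 0.0286, the smallest that 4 against 4 allows). H2-T24 had 8.35, 10.1, 8.84 and 7.42 FPKM in KO and 3.87, 3.6, 3.36 and 3.71 FPKM in WT. It rose by 1.15 ± 0.10 on the log2 scale (adjusted p = 0.000123), which is the steepest rise among the members, with no overlap. H2-T22 and H2-T10 are close copies known as ligands of gamma delta T cells, and H2-T10 is listed here as a polymorphic pseudogene. H2-T22 had 31.0, 29.4, 29.5 and 37.2 FPKM in KO and 26.6, 28.4, 22.1 and 25.8 FPKM in WT. All KO values were above WT, but the difference missed the threshold (0.30 ± 0.11, adjusted p = 0.067). H2-T10 had 2.27, 1.73, 2.17 and 2.19 FPKM in KO and 1.26, 1.76, 1.43 and 1.19 FPKM in WT and passed (0.44 ± 0.12, adjusted p = 0.0244), although KO2 lay just below WT2. Leaving out KO1, KO3, KO4 or WT1 ended that call (adjusted p = 0.0552 to 0.0698), as did leaving out WT1 and WT2 (0.0565).

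In the M region H2-M3, which presents peptides that begin with N-formylmethionine, had 11.4, 11.0, 9.7 and 7.22 FPKM in KO and 5.37, 4.88, 6.46 and 6.9 FPKM in WT. KO4 was just above WT4 and the other KO libraries were clearly higher (0.68 ± 0.16, adjusted p = 0.0123), and the call was lost without WT1 and WT2 (adjusted p = 0.122). H2-M9 was near the filter, at 0.388 ± 0.196 FPKM in KO and 0.69 ± 0.42 FPKM in WT (SD, n = 4 each), and was not called (adjusted p = 0.317). Across all regions 8 of 14 tested heavy chains rose and 1 fell. The ratio of H2-T23 to H2-K1 was 0.127 to 0.135 in KO, against 0.0511 to 0.070 in WT, and that of H2-Q7 to H2-K1 was 0.0368 to 0.0408 in KO, against 0.0148 to 0.0242 in WT. Both ratios were higher in all 4 KO libraries than in any WT library. The ratios between class I genes, that of Tap1 to Tap2 included, were chosen after the values were seen and were not tested.

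**Figure D2:**
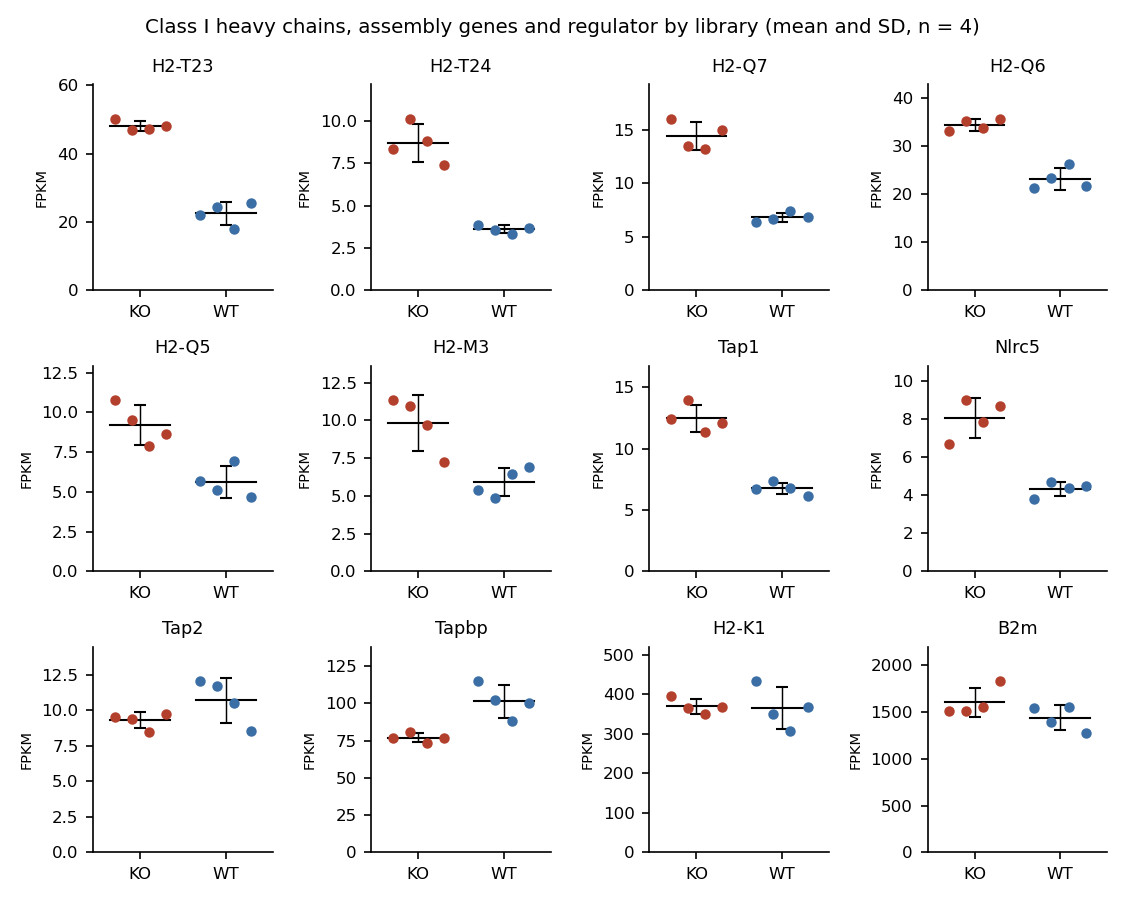
FPKM of class I members in each of the 4 KO and 4 WT libraries, one panel per gene, with points for libraries, a line at the group mean and bars of 1 SD. H2-T23, H2-Q7 and Tap1 show KO values that lie entirely above WT, while H2-K1 and B2m overlap.

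Copies within the complex share sequence, and no source used here says how reads that fit several genes were counted. In the GENCODE M21 transcripts the share of 100-base stretches also found in another gene was 12.0% for H2-Q7, 10.8% for H2-Q6, 14.0% for H2-Q5, 8.01% for H2-Q10, 8.86% for H2-T22 and 7.06% for H2-T10, and the split between these copies is uncertain. It was 3.15% for H2-T23 and 0% for H2-T24, H2-M3, Tap1 and Nlrc5. An antisense gene, A930015D03Rik, overlaps H2-T23, H2-T24 and H2-T22, and Gm7030 overlaps H2-T10. No source used here gives the strand setting, but A930015D03Rik had 0 to 0.110 FPKM in KO and 0 to 0.106 FPKM in WT. Gm7030 had 0.0740 to 0.178 FPKM in KO and 0 to 0.307 FPKM in WT. Annotated genes overlap other members too. Gm11131, antisense to H2-Q4 over 676 bases, was itself higher in KO (0.56 ± 0.15, adjusted p = 0.0222), at a mean of 0.653 FPKM. Zbtb22 overlaps Tapbp by 3422 bases on the same strand, with a mean of 6.70 FPKM, and was not called (adjusted p = 0.396).

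Among the genes that assemble class I molecules, Tap1 rose and Tapbp fell. Tap1 (chromosome 17, 34187553 to 34197225), a subunit of the TAP peptide transporter, had 12.4, 14.0, 11.4 and 12.1 FPKM in KO, against 6.74, 7.34, 6.77 and 6.18 FPKM in WT. All KO values were far above WT (0.84 ± 0.08, adjusted p = 0.00027). Tap2, the other TAP subunit, had 9.5, 9.4, 8.48 and 9.77 FPKM in KO and 12.1, 11.7, 10.5 and 8.54 FPKM in WT. The groups overlapped through WT4 (-0.18 ± 0.11, adjusted p = 0.235); without WT4 it was lower in KO and called (-0.28, adjusted p = 0.0338), and its sign turned when the libraries were scaled to equal sums. The Tap1 to Tap2 ratio was 1.31, 1.49, 1.34 and 1.24 in KO, against 0.558, 0.628, 0.645 and 0.724 in WT. The FPKM of Tap1 was thus above that of Tap2 in every KO library and below it in every WT library. Protein was not measured here.

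Tapbp encodes tapasin, which bridges TAP and the empty heavy chain, and had 76.9, 81.0, 73.8 and 76.7 FPKM in KO and 115, 103, 87.9 and 100.3 FPKM in WT. The groups did not overlap (-0.39 ± 0.10, adjusted p = 0.0175), but the call was lost without KO3 (adjusted p = 0.0526), without WT1 (0.0511), without WT1 and WT2 (0.14), and with libraries scaled to equal sums, by quantiles or with voom (0.275 to 0.352). B2m, the light chain of all class I molecules and the most abundant member, had 1508, 1515, 1552 and 1833 FPKM in KO and 1545, 1393, 1549 and 1278 FPKM in WT. KO4 stood clearly above all WT values, KO3 barely, and the groups overlapped (0.15 ± 0.12, adjusted p = 0.383, ratio 0.913 to 1.35). Erap1, which trims peptides, and Tapbpl, a second peptide editor related to tapasin, were not called (adjusted p = 0.687 and 0.431). With libraries scaled to equal sums, which raised the median of all genes to 0.24, B2m, H2-D1 and H2-T22 were called higher (0.43, 0.59 and 0.58, adjusted p = 0.0194, 0.00544 and 0.00289), and they were also called with quantiles and with voom.

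Nlrc5 (chromosome 8, 94434356 to 94527272), the class I transactivator, lies outside the complex. It had 6.72, 9.03, 7.84 and 8.71 FPKM in KO, against 3.83, 4.71, 4.37 and 4.47 FPKM in WT. The lowest KO value was above the highest WT value, and the rise was 0.82 ± 0.10 (adjusted p = 0.000795). H2-T23, H2-T24, H2-Q6, H2-Q7, Tap1 and Nlrc5 stayed called under all 20 alternative settings.

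Promoter sequence is shown for members that rose (H2-Q7, H2-T23, H2-M3 and Tap1) and for H2-K1, which was not called, as the 200 bases before the RefSeq start site (GRCm38.p6), read 5′ to 3′ on the strand of the gene. Capitals mark matches, on either strand, to motifs known from class I promoters: enhancer A, bound by NF-kappa-B, which is the leftmost run of capitals in H2-Q7 and H2-K1, interferon-type elements bound by interferon regulatory factors (GAANTGAAA, or GAAA, any 2 bases and GAAA), the cyclic AMP response core (TGACG) and the Y box (ATTGG). H2-Q7 is at chr17:35438955-35439154 (+), H2-T23 at chr17:36032702-36032901 (-), H2-M3 at chr17:37270034-37270233 (+), Tap1 at chr17:34187356-34187555 (+) and H2-K1 at chr17:34000348-34000547 (-).
H2-Q7: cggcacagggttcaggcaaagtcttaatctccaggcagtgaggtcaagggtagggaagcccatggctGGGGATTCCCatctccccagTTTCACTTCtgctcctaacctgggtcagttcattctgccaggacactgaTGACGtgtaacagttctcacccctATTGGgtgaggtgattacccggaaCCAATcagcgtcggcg
H2-T23: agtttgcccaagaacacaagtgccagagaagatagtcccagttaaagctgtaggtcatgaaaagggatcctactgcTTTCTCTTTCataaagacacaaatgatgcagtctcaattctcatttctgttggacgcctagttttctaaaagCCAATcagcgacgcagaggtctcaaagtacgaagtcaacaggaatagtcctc
H2-M3: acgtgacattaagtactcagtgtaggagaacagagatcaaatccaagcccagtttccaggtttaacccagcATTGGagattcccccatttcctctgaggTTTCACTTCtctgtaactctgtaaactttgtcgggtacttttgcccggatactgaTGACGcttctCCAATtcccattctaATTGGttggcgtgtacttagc
Tap1: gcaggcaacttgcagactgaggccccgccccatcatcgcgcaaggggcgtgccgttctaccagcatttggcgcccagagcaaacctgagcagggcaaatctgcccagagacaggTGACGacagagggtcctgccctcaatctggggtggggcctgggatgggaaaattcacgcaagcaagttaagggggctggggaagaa
H2-K1: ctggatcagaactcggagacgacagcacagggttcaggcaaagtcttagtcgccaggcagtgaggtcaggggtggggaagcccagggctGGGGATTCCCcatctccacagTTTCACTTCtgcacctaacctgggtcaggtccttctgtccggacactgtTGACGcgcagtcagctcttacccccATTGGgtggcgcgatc

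A RefSeq window was matched for 29 of the 41 members. Enhancer A was found in H2-D1, H2-K1, H2-Q6 and H2-Q7, against 0.067% of all 32851 windows of this length. The first interferon-type element stood in 7 members (H2-D1, H2-K1, H2-M3, H2-Q4, H2-Q6, H2-Q7 and H2-Q10), against 1.19% of all windows, and the second in B2m, H2-T22 and H2-T23, against 2.27%. TGACG occurred in 9 members, against 15.7% of windows, and ATTGG in 24, against 29.3%. H2-K1 and H2-Q7 hold the same 4 motifs in the same order, although H2-Q7 rose and H2-K1 was not called. H2-Q10, which was lower in KO, holds the interferon-type element too. These are letter matches and not tests of binding.

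The mean of each tested class II gene was higher in KO, but their libraries were spread widely and only H2-Aa passed. H2-Aa (chromosome 17, 34282744 to 34287823), the alpha chain of the I-A molecule, had 351, 322, 238 and 161 FPKM in KO1 to KO4, against 118, 93.1, 103 and 190.2 FPKM in WT1 to WT4. KO4 was below WT4, so the groups overlapped (1.08 ± 0.29, adjusted p = 0.0246; exact two-sided permutation p = 0.0571). The call did not survive leaving out any one of KO1, KO2, KO3, WT1, WT2 and WT3 (adjusted p = 0.0539 to 0.0677) or leaving out WT1 and WT2 together (0.184). H2-Ab1, the I-A beta chain, had 342, 270.1, 194 and 133 FPKM in KO and 130.4, 102, 92.8 and 188 FPKM in WT (0.84 ± 0.32, adjusted p = 0.0791). H2-Eb1, the beta chain of I-E, had 515, 417, 313 and 193 FPKM in KO and 181, 138, 142 and 263 FPKM in WT (0.95 ± 0.32, adjusted p = 0.0539). In all 3 chains KO1 was highest and WT4 was above KO4. H2-Ab1, H2-Eb1 and Cd74 were called higher with libraries scaled to equal sums (1.11, 1.22 and 1.07, adjusted p = 0.028, 0.0208 and 0.0285).

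The chaperones of class II were not called. Cd74, the invariant chain, had 1099, 1067, 761 and 483 FPKM in KO and 459.8, 356, 412 and 709 FPKM in WT (0.79 ± 0.30, adjusted p = 0.0798), and again KO1 was highest and WT4 was above KO4. H2-DMa, the alpha chain of the peptide exchanger H2-DM, had 24.3, 23.1, 17.5 and 10.8 FPKM in KO and 12.9, 12.5, 13.4 and 22.1 FPKM in WT (0.28 ± 0.27, adjusted p = 0.46). H2-DMb1, one of its beta chains, had 31.6, 26.5, 19.3 and 13.5 FPKM in KO and 22.1, 16.9, 14.7 and 32.8 FPKM in WT. WT4 was the highest of the 8 libraries, and the fold change was 0.07 ± 0.31 (adjusted p = 0.886), with a sign that turned when KO1, KO2, WT2 or WT3 was left out. The second beta chain, H2-DMb2, and H2-Ob, a chain of the H2-DM modulator H2-O, had fold changes of 0.19 ± 0.16 and 0.34 ± 0.19 (adjusted p = 0.413 and 0.196). H2-DMb1 and H2-DMb2 share 11.3% and 10.3% of their 100-base stretches with another gene. Ciita, the class II transactivator, had 3.55, 4.35, 3.05 and 1.61 FPKM in KO and 1.6, 0.928, 1.38 and 3.09 FPKM in WT, overlapping through KO4 and WT4 (0.72 ± 0.32, adjusted p = 0.126).

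**Figure D3:**
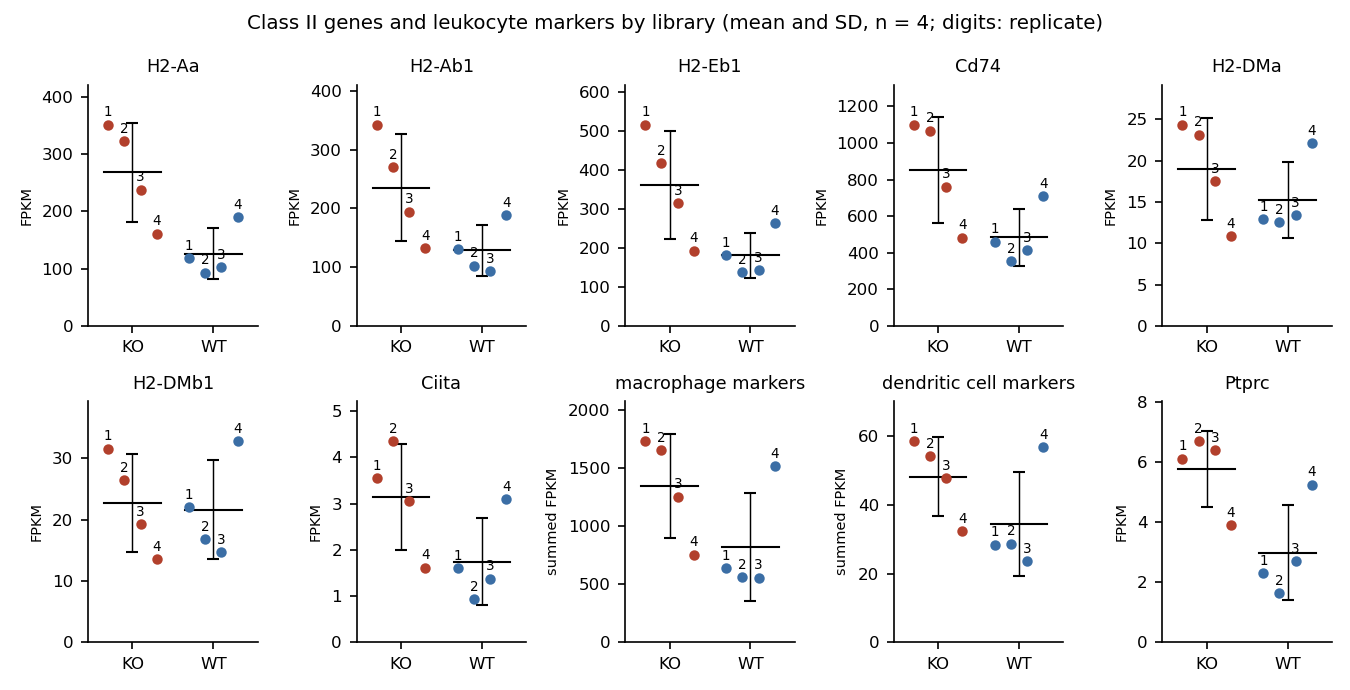
FPKM of class II members, summed macrophage and dendritic cell markers and Ptprc in each of the 4 KO and 4 WT libraries, one panel each, with points labelled by replicate number, a line at the group mean and bars of 1 SD. KO4 is the lowest KO library and WT4 the highest WT library for H2-Aa, H2-Ab1, H2-Eb1, Cd74 and the macrophage markers.

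The sums of macrophage and of dendritic cell markers had the same outlying libraries. The 14 macrophage markers summed to 1731, 1654, 1253 and 754 FPKM in KO1 to KO4, against 642, 559, 558 and 1515 FPKM in WT1 to WT4. Of the 14, 6 rose and none fell (42.9% higher, against 11.7% of all tested genes). The 10 dendritic cell markers summed to 58.5, 54.1, 47.7 and 32.3 FPKM in KO and 28.4, 28.7, 23.6 and 56.8 FPKM in WT. Of 9 tested, 4 rose (44.4%). Zbtb46, Cd209a and Itgax had fold changes below 0 (-0.20, -0.73 and -0.13) and were not called. Ptprc, carried by all leukocytes, had 6.11, 6.69, 6.38 and 3.9 FPKM in KO and 2.31, 1.65, 2.71 and 5.25 FPKM in WT and rose (0.92 ± 0.29, adjusted p = 0.0419). B cell markers summed to 2.45 to 5.62 FPKM in KO and 1.71 to 3.27 FPKM in WT, with 2 of 2 tested higher. T cell markers summed to 5.35 to 9.63 FPKM in KO and 3.88 to 10.7 FPKM in WT, a sum led by Trac, which had 3.3, 3.14, 2.12 and 2.25 FPKM in KO and 9.9, 3.21, 3.22 and 8.53 FPKM in WT and was not called (adjusted p = 0.0826). The 7 other T cell markers were higher in mean in KO and summed to 3.1 to 6.49 FPKM in KO, against 0.663 to 1.84 FPKM in WT, without overlap. Trac was left out of this sum after its values were seen. Among the 7 only Lck was tested, and it rose (adjusted p = 0.0137), while 6 did not pass the filter. No marker was at 0 in any library. In bulk tissue fewer cells of a type and less RNA per cell cannot be told apart, and the part of these cells in the class II levels was not tested.

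Leaving out KO4 and WT4 together gave 7 called rises among the class II members, H2-Aa, H2-Ab1, H2-Eb1, Cd74, Ciita, H2-DMa and H2-Ob, with fold changes on the log2 scale of 1.41 for H2-Eb1 and 1.24 for Cd74. Leaving out KO4 alone or WT4 alone gave 5 each. Set against the macrophage markers, the summed chains H2-Aa, H2-Ab1 and H2-Eb1 were at 0.595 to 0.698 in KO and 0.423 to 0.67 in WT, and against Ptprc at 117 to 198 in KO and 122 to 203 in WT. Against the dendritic cell markers the chains were at 15.0 to 20.7 in KO and 11.3 to 15.2 in WT, and the groups overlapped in all 3 comparisons. For H2-Aa alone, set against Cd68 and Itgax only, the groups did not overlap. Cd68 and Itgax had log2 fold changes of 0.48 and -0.13, while the macrophage markers had a median of 0.995. Markers with larger rises, such as Adgre1 (1.15), Csf1r (1.08) and Fcgr1 (2.17), were not used in this way. H2-Aa over Cd68 was 2.86 to 3.51 in KO, against 1.15 to 2.78 in WT. H2-Aa over Itgax was 34.2 to 40.1 in KO, against 10.4 to 23.4 in WT. Within class II some proportions to H2-Aa, the gene with the largest class II fold change (1.08), differed. Cd74 over H2-Aa was 3.01 to 3.31 in KO, against 3.73 to 4.0 in WT, H2-DMa over H2-Aa was 0.0674 to 0.0738 in KO, against 0.109 to 0.135 in WT, and H2-DMb1 over H2-Aa was 0.0812 to 0.090 in KO, against 0.143 to 0.187 in WT. All 4 KO values were below all 4 WT values for each of these 3 ratios, KO4 and WT4 included. Ciita over H2-Aa overlapped, at 0.010 to 0.0135 in KO and 0.00997 to 0.0162 in WT. These ratios were chosen after the values were seen and were not tested.

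**Figure D4:**
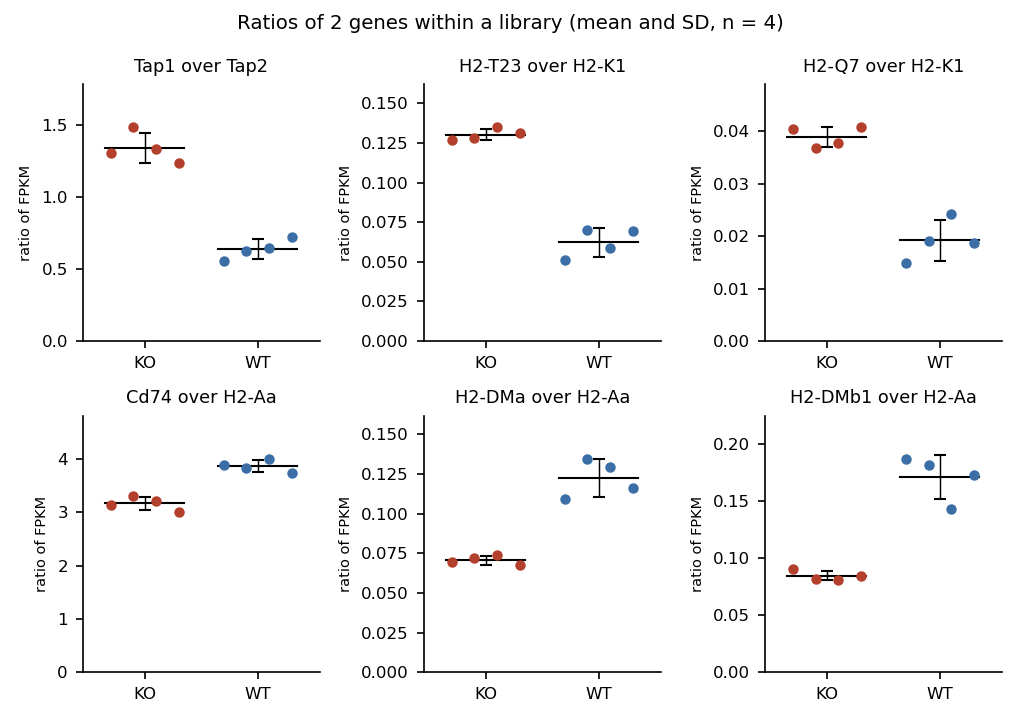
Ratios of FPKM between members within each library, 4 KO and 4 WT, one panel per ratio, with a line at the group mean and bars of 1 SD. The Tap1 to Tap2 ratio is 1.24 to 1.49 in KO and 0.558 to 0.724 in WT, and H2-DMb1 over H2-Aa is 0.0812 to 0.09 in KO and 0.143 to 0.187 in WT.

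Of the 21 tested class I members, H2-M3 and H2-K2 showed the library order of the class II chains, with KO4 lowest in KO and WT4 highest in WT. KO4, with the lowest macrophage sum in KO, had 48.0 FPKM of H2-T23 and 12.1 FPKM of Tap1, inside the range of the other KO libraries. H2-T24 was lowest in KO4 among the KO libraries, at 7.42 FPKM. WT4, with a macrophage sum of 1515 FPKM, had 25.6 FPKM of H2-T23 and 6.18 FPKM of Tap1, below every KO library. Without KO4 and WT4, 9 class I members were called higher, with H2-K2 added and H2-Q4 and H2-T10 lost. Adipocyte and endothelial markers moved with the groups: all 8 adipocyte markers fell, as did 6 of 6 endothelial markers (108 to 128 FPKM summed in KO, against 161 to 226 FPKM in WT). The part of these cells, and that of leukocytes, in the class I difference was not tested.

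Promoters of class II are shown for H2-Aa, which rose, and for H2-Eb1, the most abundant class II chain, at chr17:34287824-34288023 (-) and chr17:34305667-34305866 (+), with the same conventions and with the X box, bound by RFX (AGCAAC, any base and GATG), added to the capitals.
H2-Aa: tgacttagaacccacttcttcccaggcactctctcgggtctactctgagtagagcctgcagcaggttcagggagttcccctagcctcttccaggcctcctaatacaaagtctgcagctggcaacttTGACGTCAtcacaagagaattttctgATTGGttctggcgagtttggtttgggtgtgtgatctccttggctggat
H2-Eb1: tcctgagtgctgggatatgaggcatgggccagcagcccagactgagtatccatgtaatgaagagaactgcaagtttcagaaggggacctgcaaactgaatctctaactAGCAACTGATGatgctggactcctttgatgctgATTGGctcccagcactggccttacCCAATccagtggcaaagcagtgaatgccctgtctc

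The X box in these letters stood in H2-Eb1 and H2-Eb2 and in 0.0487% of all windows. In H2-Eb1 it lies upstream of 2 Y boxes. H2-Aa has no match to it in this window and has TGACGTCA, which holds TGACG on both strands, upstream of a Y box.

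Of 53 other genes of the route in 7 lists, 50 were tested, with 8 higher and 6 lower, or 28% called, near the 30.4% of all genes. Of 5 genes for the immunoproteasome, which cuts peptides for class I, and its PA28 activator, Psmb9 alone was called (20% of the list). It had 7.95, 6.37, 5.71 and 5.8 FPKM in KO and 4.84, 5.0, 4.21 and 3.85 FPKM in WT, without overlap (0.48 ± 0.12, adjusted p = 0.018). Psmb9 and Tap1 lie on opposite strands, and their RefSeq start sites are 226 bases apart. In GENCODE M21 their spans overlap by 212 bases, so reads there could count for either. The subunits Psmb8 and Psmb10 had fold changes of 0.26 ± 0.13 and -0.37 ± 0.14 (adjusted p = 0.15 and 0.0739), and the activator genes Psme1 and Psme2 of 0.10 ± 0.07 and -0.57 ± 0.21 (adjusted p = 0.284 and 0.0701). None of 8 chaperones of the endoplasmic reticulum was called, the most abundant being P4hb (adjusted p = 0.208) and Calr (adjusted p = 0.427).

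Of 7 class I-like molecules encoded outside the complex 4 fell and none rose, where 18.6% of all tested genes fell. Cd1d1, which shows lipids to natural killer T cells and could share reads with its near copy Cd1d2, had 57.6, 62.0, 53.6 and 79.7 FPKM in KO, against 128, 148, 133 and 104 FPKM in WT, without overlap (-1.02 ± 0.15, adjusted p = 0.00172). Hfe, a regulator of iron uptake, averaged 24.3 ± 2.74 FPKM in KO and 44.3 ± 7.5 FPKM in WT (SD, n = 4 each; -0.85 ± 0.14, adjusted p = 0.00253). Mr1, which shows vitamin B metabolites, and Procr, the protein C receptor, also fell (-0.58 ± 0.11 and -0.51 ± 0.15, adjusted p = 0.00612 and 0.0306). The Mr1 call was lost without WT1 and WT2 (adjusted p = 0.0726), and the Procr call without WT1, WT2 or WT4 alone (adjusted p = 0.0555 to 0.0769), with equal sums, voom, no filter or a replicate block, or without KO4 and WT4 (0.0603 to 0.181). The 3 not called were Cd1d2, Azgp1 and Fcgrt, a receptor for IgG. Fcgrt had 109.6, 99.1, 86.2 and 77.1 FPKM in KO and 67.3, 80.7, 60.9 and 74.6 FPKM in WT, with KO mostly the higher and KO4 within WT (0.38 ± 0.14, adjusted p = 0.0599).

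Of 9 genes for class II loading and endosomal proteolysis, 1 rose and 2 fell, or 33.3% called, near the 30.4% of all genes. March1, a ubiquitin ligase that removes class II molecules and CD86 from the surface, had 5.43, 4.37, 4.28 and 2.26 FPKM in KO and 1.03, 0.853, 0.916 and 1.94 FPKM in WT (1.43 ± 0.26, adjusted p = 0.0049). The proteases Ctsd (246 ± 35.0 FPKM in KO, 486 ± 73.5 FPKM in WT, SD, n = 4 each; -0.98 ± 0.15, adjusted p = 0.00204) and Ctsl (-0.78 ± 0.20, adjusted p = 0.018) fell, and Ctsl lost its call without KO3 or WT1 (adjusted p = 0.0535 to 0.0537), with equal sums or voom, or without KO4 and WT4 (0.0508 to 0.0637). None of 7 DNA-binding partners of CIITA and NLRC5 was called, the most abundant being Nfyc (adjusted p = 0.362) and Rfxap (adjusted p = 0.0685, but 0.0259 without KO1).

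In the interferon gamma route, which induces both classes, 3 of 9 tested genes rose and none fell, or 33.3% called, near the 30.4% of all genes. The receptor chain Ifngr1 had 68.9, 68.5, 72.9 and 68.8 FPKM in KO and 48.8, 53.9, 54.9 and 51.6 FPKM in WT, without overlap (0.41 ± 0.07, adjusted p = 0.00425). Irf8, a transcription factor of myeloid cells, averaged 7.35 ± 1.49 FPKM in KO and 4.12 ± 0.89 FPKM in WT (SD, n = 4 each; 0.76 ± 0.17, adjusted p = 0.0119). The kinase Jak2 passed narrowly (0.32 ± 0.10, adjusted p = 0.0425) and was lost when KO2, KO3, KO4, WT1, WT2 or WT4 was left out (adjusted p = 0.0702 to 0.114). Of 5 tested costimulation genes 3 rose, or 60% called, against 30.4% of all genes. Cd86, the ligand of CD28 on T cells, had 5.38, 6.62, 6.47 and 4.84 FPKM in KO, against 1.14, 1.19, 1.86 and 2.51 FPKM in WT, without overlap (1.58 ± 0.20, adjusted p = 0.00087). Icosl, the ligand of ICOS, averaged 6.9 ± 1.34 FPKM in KO and 3.52 ± 0.386 FPKM in WT (SD, n = 4 each; 0.87 ± 0.13, adjusted p = 0.00181). Cd40 was called (0.59 ± 0.19, adjusted p = 0.0447), but not without KO1, KO2, KO3 or any single WT library (adjusted p = 0.0581 to 0.107). Without WT1 and WT2 together, March1, Irf8, Procr, Ctsl, Jak2 and Cd40 all lost their calls (adjusted p = 0.0649 to 0.268). Jak2 was also lost with no filter, without trend or without KO4 and WT4 (adjusted p = 0.0531 to 0.107), and Cd40 with no filter, quantiles or a replicate block (0.073 to 0.0827).

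Other genes of the complex were called about as often as genes at large. Between the start of Tapbp and the end of H2-M2 on chromosome 17 (33915899 to 37483552), 24 members were tested, with 10 higher and 2 lower and a median log2 fold change of 0.33. The 101 other tested genes in this interval had 14 higher and 16 lower, or 29.7% called, near the 30.4% over all genes, with a median of -0.03. Their fold changes ran from -1.87 (Cdsn) to 1.54 (Aif1).

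**Figure D5:**
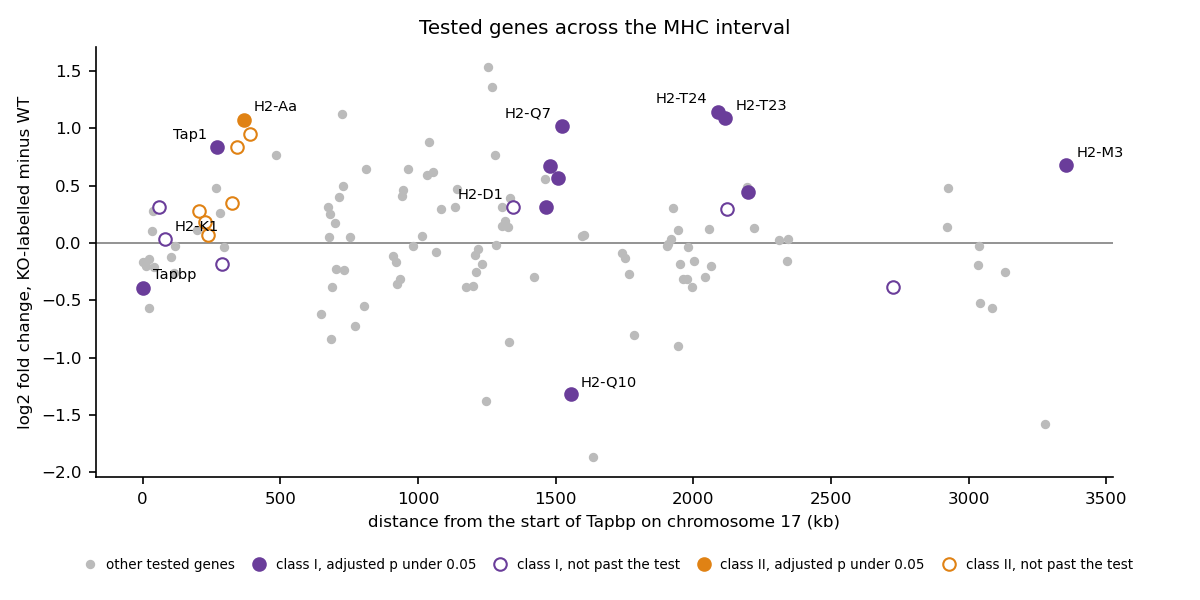
Log2 fold change (KO over WT) of the 125 tested genes between Tapbp and H2-M2 on chromosome 17, by distance from the start of Tapbp, with members and other genes marked apart. Members above 0 lie in several blocks of the interval, and the 101 other genes scatter around a median of -0.03.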

How the data were processed

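Poly(A) RNA from epididymal fat was measured in 8 libraries, 4 KO and 4 WT. Per the labels' protocols, RNA was extracted with TRIzol, captured on oligo-dT beads and primed with random hexamers. Per the submitters' processing notes, HISAT2 2.0.5, featureCounts and build mm10 were used, and the annotation release and strand setting are not stated there. The authors deposited FPKM values, in 1 table of 28295 genes, and these are not counts. Symbols were taken by gene ID (28255, 99.9%, matched), with GENCODE M21 coordinates (GRCm38, 1-based).

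The test was limma 3.58.1 in R 4.3.3 on log2(FPKM + 0.5) (trend, robust, two-sided, no covariate) over the 14400 genes with a mean of at least 0.5 FPKM, with Benjamini-Hochberg adjustment over all of them. This scale understates changes of low genes. Whole reads were recovered from the FPKM steps: 97.9% of values between 0.5 and 200 reads lay within 0.02 of a whole number. They gave the depths, 24.2 to 29.1 M mapped fragments (M, 1000000) in KO and 22.9 to 25.5 M in WT, and 1 alternative, voom. On these reads, voom called 4404 genes higher and 1241 lower, against 1689 and 2683 in the fit as reported.

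The members and lists were chosen with earlier results of these data known, so they are no independent evidence. Every called member, and the most abundant 2 of each role, are given by library. Of each other list, up to 4 called genes by smallest adjusted p are named, or the most abundant 2 where none was called. Alternatives were other pseudocounts, filters, scalings, no trend, a replicate block, voom, and libraries left out. Promoters are RefSeq windows (GRCm38.p6). Genes with no window were named only. Scripts ran under Python 3.11.15 with pandas 2.3.3, numpy 2.4.6, matplotlib 3.10.9 and scipy 1.17.1.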

Additional observations from a re-analysis of the deposited data

Results flagged for a closer look

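In 60 groups of 4 libraries, 1 per tested member and group, 3 held a library farther from its group than the others (Dixon's test at the 95% level). Chance gives such a library in about 1 in 20 groups. B2m was at 1833 FPKM in KO4, where KO1 to KO3 had 1508, 1515 and 1552 FPKM. H2-Q10 was at 7.17 FPKM in WT2, where WT1, WT3 and WT4 had 2.22, 1.82 and 1.45 FPKM. The same library had the highest sum of hepatocyte markers, 465 FPKM. H2-DMa was at 22.1 FPKM in WT4, where WT1 to WT3 had 12.9, 12.5 and 13.4 FPKM. That library had the highest sum of macrophage markers in WT, 1515 FPKM.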

How the results depend on the processing

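H2-T23, H2-T24, H2-Q6, H2-Q7, Tap1 and Nlrc5 kept direction and call under all 20 alternatives. The 11 rises and 2 falls among members became 18 and 1 with libraries scaled to equal sums or quantile-normalized and 18 and 0 with voom, keeping all 11 rises, and 6 and 0 without WT1 and WT2. The median over all genes (log2) moved to 0.24 with equal sums and 0.22 with voom, and above it the class I median was 0.36 and 0.35, against 0.34 in the fit as reported. With no filter, 1 member was lower. Without single libraries, 9 to 15 members were higher and 0 to 3 lower. Class I rises were 6 without WT1 and WT2. Class II rises were 2 with a mean of at least 1 FPKM, 4 with equal sums, quantiles or voom, 0 without WT1 and WT2, 7 without WT4 and KO4, and 0 to 5 without single libraries. Over all genes, 4226 were higher and 1190 lower with equal sums, 722 and 1036 without WT1 and WT2, 4404 and 1241 with voom, and 1089 to 1937 higher and 1858 to 2803 lower without single libraries. Of the other lists' 8 rises and 6 falls, rises became 17 with equal sums, 4 without WT1 and WT2, 14 without WT4 and KO4, and 20 with voom, and falls 4, 3, 4 and 4. Cul3 was 0.37 with equal sums (adjusted p = 0.0477) and 0.35 with voom (adjusted p = 0.0295), higher in KO.

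Signs turned for genes not called: Tap2 (0.081 equal sums, 0.061 voom), Tapbpl (0.13, 0.12), Erap1 (0.21, 0.20, 0.018 with quantiles, and -0.11 to 0.013 without single libraries), Calr (0.10 equal sums, 0.088 quantiles, 0.083 voom), P4hb (0.097, 0.064, 0.076), Rfxap (0.0019 equal sums), H2-M9 (0.011 without WT1 and WT2), H2-K1 (-0.047 to 0.12 without single libraries) and H2-DMb1 (-0.025 without WT1 and WT2, -0.11 to 0.29 without single libraries). The causes were not tested.

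The labels do not say whether the replicate numbers pair libraries. The correlations of deviations for numbers 1 to 4 were -0.06, -0.13, 0.17 and -0.32, which cannot decide it. With the number as a block, 8 members were higher and 1 lower, 0 of them class II, with 1113 higher over all genes. Among members H2-Aa, H2-M3, H2-T10 and H2-Q10 lost their calls.

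Mapping of near-identical copies and the unknown strand setting limit the split between copies. Intervals come from the limma fit and hold the spread between libraries, no counting error is given, and genes with a mean under 0.5 FPKM were not tested.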

Other observations

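Cd1d2, a near copy of Cd1d1 that is annotated as a polymorphic pseudogene, was uneven within both groups. It had 6.11, 0.294, 2.97 and 0.212 FPKM in KO1 to KO4 and 0.0771, 9.38, 15.7 and 11.6 FPKM in WT1 to WT4, so WT1 stood with KO2 and KO4 at low levels (log2 fold change -1.61 ± 1.15, adjusted p = 0.317). The gene was singled out after its values were seen, and no source used here gives the strain of the mice. Azgp1, a class I-like protein abundant in liver, had 0.256, 0.203, 0.154 and 0.176 FPKM in KO and 2.36, 8.04, 0.325 and 0.152 FPKM in WT, with the high values in WT1 and WT2, the libraries with the most hepatocyte marker RNA (adjusted p = 0.162).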
